A study of Mus musculus with 4 samples.

Results

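The nuclear genes of oxidative phosphorylation were followed through 4 RNA sequencing libraries of mouse spleen cells. They were selected by name: the rows whose symbol starts with Ndufa, Ndufb, Ndufc, Ndufs, Ndufv, Sdha, Sdhb, Sdhc, Sdhd, Uqcr, Cox4, Cox5, Cox6, Cox7, Cox8 or Atp5 and whose level reached 1 FPKM in any library. FPKM is a count of fragments scaled to transcript length and to library depth, so levels can be compared between genes. Of the 22476 symbols used, 92 carry these prefixes and 87 passed the 1 FPKM rule. The 5 symbols left out (Cox4i2, Cox7b2, Cox8b, Cox8c and Ndufa4l2) were listed at 0 in every library, and the gene just inside the rule was Cox7a1, with a highest level of 1.22 FPKM. Of the 87 genes, 77 encode subunits of the 5 complexes: 36 of complex I, 4 of complex II, 8 of complex III, 14 of complex IV and 15 of complex V. Ndufa4, named after complex I, was counted in complex IV, where its protein is now placed. The other 10 are not subunits: 6 encode assembly factors (Ndufaf1 to Ndufaf4, Sdhaf1 and Sdhaf2), and Cox7a2l, Atp5s, Atp5sl and Cox4nb carry the prefix without being counted as subunits.

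The cells were invariant natural killer T (iNKT) cells, T cells with a semi-invariant receptor for lipids on CD1d, and CD44hi CD4+ T cells, the antigen-experienced part of the CD4+ T cells. All mice were on the C57BL/6 background. Both types were taken from wild-type animals (WT) and from Ezh2fl/fl CD4-Cre animals (KO). There, Cre under Cd4 control acts on floxed Ezh2, the gene of the catalytic subunit of Polycomb repressive complex 2, in cells of the T lineage. Each group is 1 library, so nothing below could be checked against replicates, tested or given a standard error. The number of mice behind a library is not given in the sources used here. Where 4 values follow each other below, their order is always iNKT (WT, then KO) and then CD44hi (WT, then KO).

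Oxidative phosphorylation makes ATP at the inner membrane of mitochondria. Complex I takes electrons from NADH and complex II takes them from succinate. Ubiquinone carries them to complex III, cytochrome c carries them on to complex IV, and complex IV passes them to oxygen. Complexes I, III and IV pump protons across the membrane, and the protons flow back through complex V, the ATP synthase. A few subunits are encoded by the mitochondrial genome and were not analysed here. The rest are nuclear genes that are active in almost every cell, and memory T cells are known to rely on this pathway. Several complex IV subunits also have isoforms of heart and skeletal muscle, lung or testis.

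The estimated depths of the libraries stood in the ratio 1 to 1.096 to 3.64 to 4.77, and 1 fragment in a transcript of 500 bases was worth 0.670, 0.637, 0.179 and 0.139 FPKM. Ezh2 was listed at 15.3, 16.8, 28.9 and 18.5 FPKM; a level over the whole gene also holds reads from exons outside the floxed part, so it does not check the genotype labels, and KO means a library labelled KO. All 9 listed T cell markers were above 1 FPKM in each library. The 6 iNKT markers summed to 1645, 659, 416 and 459 FPKM, and Zbtb16 among them was at 28.2, 63.1, 4.30 and 41.4. Zbtb16, Cxcr6 and Klrb1c were higher in KO than in WT CD44hi, and Il2rb, Cd44 and Slamf6 lower. Between cell types, all 6 but Slamf6 were higher in iNKT in WT, and all but Cxcr6 in KO. By their sum, the iNKT markers separate the KO libraries less than the WT libraries. The CD44hi libraries also held RNA of other cells: the 8 B cell markers summed to 1.55, 1.72, 59.3 and 86.6 FPKM, the 10 myeloid markers listed to 90.9, 76.8, 485 and 829, and the 7 red cell genes to 23.3, 24.5, 194 and 938. Of the B cell markers, 4 were at 0 in WT iNKT and 2 in KO iNKT. The Y-linked gene Eif2s3y was at 22.7 FPKM in WT CD44hi and listed at 0 in the other libraries, so male cells contributed to that library. Xist, an RNA of female cells, was at 55.3, 76.8, 46.8 and 80.0 FPKM, so female cells contributed to each library. Sex therefore cannot be told apart from cell type between the WT libraries or from genotype between the CD44hi libraries. In bulk RNA, more cells of a type and more RNA per cell cannot be told apart.

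The subunit genes were expressed at similar levels in the 4 libraries. The median over the 87 genes was 61.2, 68.1, 62.8 and 65.0 FPKM. Together they made up 2.10%, 2.16%, 1.92% and 1.999% of the summed FPKM. The order of the complex medians was the same in each library. Complex V had the highest median in every library (142, 127, 124 and 146 FPKM) and complex IV the next (93.4, 110.1, 84.5 and 98.3). Complex III followed at 72.2, 77.5, 74.4 and 79.0 FPKM and complex II at 67.6, 65.6, 50.6 and 58.1. Complex I was lowest, with medians of 52.3, 48.4, 43.6 and 46.6 FPKM.

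**Figure D1:**
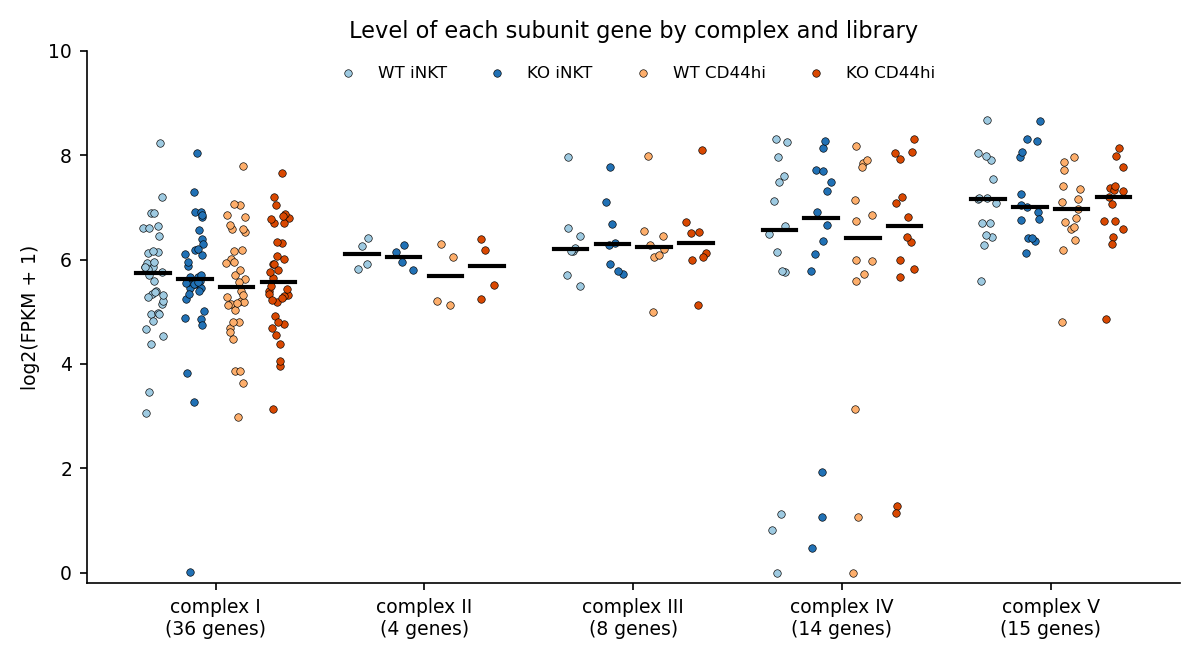
Level of each of the 77 subunit genes, as log2(FPKM + 1) on the vertical axis, by complex and library; each point is 1 gene and the bar is the median FPKM of the complex in that library on the same scale. The complex medians lie close together across the 4 libraries, and the points near 0 are Ndufs5 in KO iNKT and the tissue isoforms of complex IV.

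Differences were taken between pairs of libraries on the log2(FPKM + 1) scale, which understates the difference of low genes, and a gene was called at 2-fold on that scale. A fold or ratio below is the plain quotient of 2 FPKM values, with 95% exact (Clopper-Pearson) intervals from estimated fragments that cover counting error only. Between genotypes few subunit genes passed the rule. In KO against WT iNKT, 1 of 86 measured members was at least 2-fold higher (Cox6b2) and 1 lower (Ndufs5), or 1.16% each way, where 6.08% of the 10818 genes measured were higher and 3.35% lower. At 1.5-fold the members' counts were again 1 and 1, against 14.3% and 8.67% of all genes. In KO against WT CD44hi, 2 of 87 were higher (Cox6a2 and Cox7a1), or 2.30%, near the 2.44% of all 11352 genes. None was lower, where 1.14% of all genes were. At 1.5-fold the same 2 were higher and none lower, against 6.42% and 3.47% of all genes.

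The typical member sat slightly above 0 in both genotype comparisons. The median difference of the members in KO against WT iNKT was 0.07 (all genes 0.05), with 54 members above 0 and 32 below. In KO against WT CD44hi the members' median was 0.12 (all genes 0.01), with 73 above 0 and 14 below. Subunit transcripts are short, with a median of 838 bases against 2731 for all genes at 1 FPKM or more, and 51 of the 87 are under 1000 bases. In this pair all measured genes with transcripts under 1000 bases had a median of 0.15, so the members' upward lean was not larger than that of short transcripts as a class; the part of transcript length in it was not tested further. By complex, the medians in KO against WT iNKT were 0.09 for I, -0.01 for II, 0.18 for III, 0.11 for IV and 0.07 for V. In KO against WT CD44hi they were 0.11, 0.12, 0.10, 0.21 and 0.10.

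The genotype differences of the 2 cell types, which share no library, showed little common order. Across the 87 genes Pearson's r was -0.01, and 57 had the same sign; across all 11716 genes at 1 FPKM or more r was 0.08. These are descriptions across genes, which are not independent replicates and share transcript length and the scaling of each library. Without Cox6a2, Cox6b2, Cox7a1 and Ndufs5, left out after their values were seen, r was 0.02 over 83 genes.

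**Figure D2:**
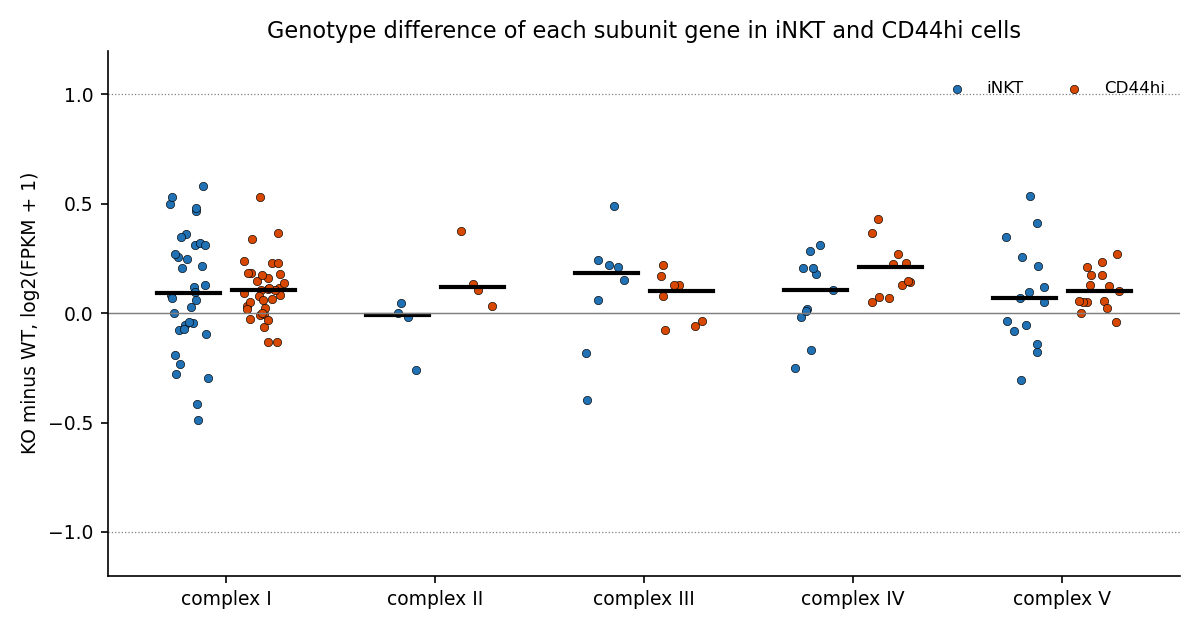
Genotype difference (KO minus WT, log2(FPKM + 1), vertical axis) of each subunit gene by complex in iNKT cells (blue) and CD44hi cells (orange); each point is 1 gene, the bar is the median of all measured subunits of the complex, and dotted lines mark 2-fold. Cox6a2, Cox6b2, Cox7a1 and Ndufs5 are left out of the points; every point shown is within 2-fold.

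The cell types differed more than the genotypes, in a limited set of genes. In WT, 3 of 87 members were at least 2-fold higher in iNKT than in CD44hi (Ndufc1, Atp5g2 and Cox7a1), or 3.45% against 3.65% of the 11217 genes measured, and 1 was lower (Cox6a2), or 1.15% against 10.9%. In KO, 2 were higher (Atp5g1 and Ndufc1), or 2.30% against 3.02% of 11469 genes, and 2 lower (Cox6a2 and Ndufs5), or 2.30% against 9.06%. At 1.5-fold, 17 members were higher and 4 lower in WT iNKT, or 19.5% and 4.60%, against 10.3% and 19.0% of all genes. In KO iNKT 12 were higher and 5 lower, or 13.8% and 5.75%, against 10.5% and 16.1%. The lower genes of the background include B and myeloid cell genes such as Cd79b and Tyrobp. S100a8 and S100a9 were higher in iNKT, at no more than 2.72 FPKM. Hbb-b2 was listed higher in iNKT too. Its CD44hi values of 0.000127 and 0.000164 FPKM are below what 1 fragment would give, so it is uncertain. The related genes Hbb-b1 and Beta-s were lower in iNKT. The members' median difference was 0.08 in WT (all genes -0.06) and 0.11 in KO (all genes -0.02).

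The order of the members was similar in the 2 genotypes, whose cell type comparisons share no library. In both comparisons the iNKT library was the shallower, and the CD44hi library held RNA of other cells. Cell type cannot be told apart from depth or other cells here, nor from sex in the WT comparison. Across the 87 genes r was 0.73, and 68 had the same sign; over all 11716 genes r was 0.63. Without the same 4 genes r was 0.79 over 83 genes, of which 66 had the same sign. On the log2(FPKM + 1) scale, 9 subunit genes were at least 1.5-fold higher in iNKT in both genotypes. Ndufa7, Ndufb6, Ndufc1 and Ndufs4 are of complex I, Uqcrfs1 of complex III and Ndufa4 of complex IV. Atp5g1, Atp5g2 and Atp5g3 are of complex V. Lower in both were Ndufa1 and Cox6a2. The share of all genes that passed in both genotypes was not computed, so these counts are a list and not a result about the members. In the single comparisons 10.3% (WT) and 10.5% (KO) of all genes were higher, and 19.0% and 16.1% lower. On the log2(FPKM + 1) scale, no complex II gene and none of the 10 members outside the complexes passed 1.5-fold in both. As a plain quotient Atp5s, a low gene outside the complexes, did pass in both, with iNKT to CD44hi ratios of 1.64 in WT and 1.92 in KO.

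**Figure D3:**
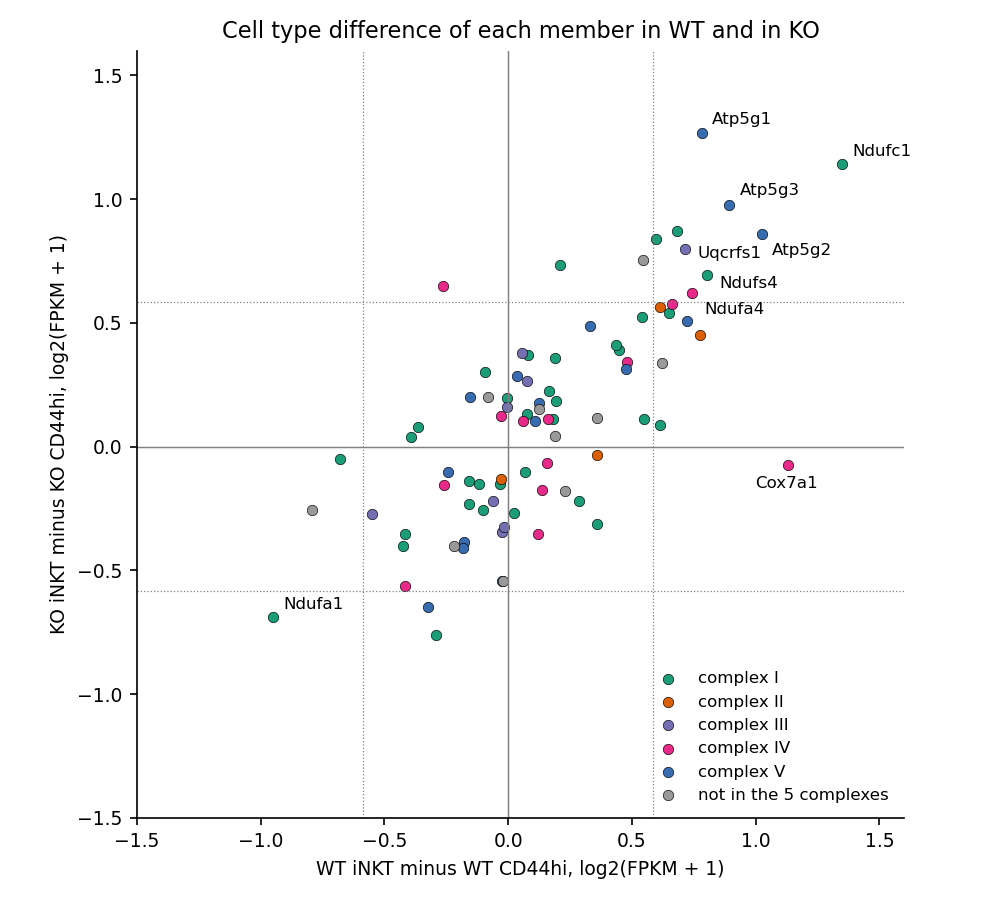
Cell type difference (iNKT minus CD44hi, log2(FPKM + 1)) of each member in WT (horizontal axis) and in KO (vertical axis), coloured by complex; dotted lines mark 1.5-fold and Cox6a2 and Ndufs5 lie outside the axes. The 3 Atp5g genes and Ndufc1 lie at the upper right and Ndufa1 at the lower left, while Cox7a1 is high in the WT comparison alone.

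Complex V, the ATP synthase, held the clearest group, the genes of subunit c. Atp5g1, Atp5g2 and Atp5g3 encode the same mature protein behind different mitochondrial targeting sequences, and copies of it form the rotating ring in the membrane through which protons pass. The sequence before a transcription start of each gene is shown because the 3 genes differed together between the cell types. Those of Ndufc1 and Ndufa1 are shown because these genes lay farthest above and below the other complex I genes in the WT comparison. Each line is the 250 bases before the transcription start in RefSeq (GRCm38.p6), on the strand of the gene, 5′ to 3′. The first window listed for a gene was used, and other starts were not searched. The window of Atp5g2 lies inside the GENCODE span of the gene given below, not before it. Capitals mark matches to the motif of nuclear respiratory factor 1 (GCGCANGCG, either strand). Searches on either strand for the ETS motif CCGGAAG, the core bound by GABP, and for the YY1 core AAGATGG found none in these 5 windows. The windows are chr11:96075632-96075881 for Atp5g1, chr15:102671048-102671297 for Atp5g2, chr2:73911327-73911576 for Atp5g3, chr3:51408956-51409205 for Ndufc1 and chrX:37191239-37191488 for Ndufa1, all on the minus strand.
Atp5g1: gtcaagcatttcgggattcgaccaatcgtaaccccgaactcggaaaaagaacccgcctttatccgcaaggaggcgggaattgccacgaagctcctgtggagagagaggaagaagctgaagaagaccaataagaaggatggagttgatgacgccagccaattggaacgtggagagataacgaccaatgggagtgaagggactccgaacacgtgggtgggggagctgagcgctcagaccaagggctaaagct
Atp5g2: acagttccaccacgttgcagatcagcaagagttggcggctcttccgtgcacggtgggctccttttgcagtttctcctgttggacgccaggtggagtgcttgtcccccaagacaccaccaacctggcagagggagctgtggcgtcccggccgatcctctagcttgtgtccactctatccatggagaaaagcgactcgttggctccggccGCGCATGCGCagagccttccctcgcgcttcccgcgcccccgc
Atp5g3: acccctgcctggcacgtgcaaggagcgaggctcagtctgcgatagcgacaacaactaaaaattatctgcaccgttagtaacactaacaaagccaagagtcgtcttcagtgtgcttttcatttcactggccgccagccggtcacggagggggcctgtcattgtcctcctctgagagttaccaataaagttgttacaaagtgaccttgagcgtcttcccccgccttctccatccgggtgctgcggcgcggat
Ndufc1: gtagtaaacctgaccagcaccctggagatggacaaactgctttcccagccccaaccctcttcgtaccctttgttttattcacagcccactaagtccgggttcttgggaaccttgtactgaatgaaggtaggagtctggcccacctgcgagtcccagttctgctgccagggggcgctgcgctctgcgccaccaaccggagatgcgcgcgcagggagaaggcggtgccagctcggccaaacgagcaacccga
Ndufa1: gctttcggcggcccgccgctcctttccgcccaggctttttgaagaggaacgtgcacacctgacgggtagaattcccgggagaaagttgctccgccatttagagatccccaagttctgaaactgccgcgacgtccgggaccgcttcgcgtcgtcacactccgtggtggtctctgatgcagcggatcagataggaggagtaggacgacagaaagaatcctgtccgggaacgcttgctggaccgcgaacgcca

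Atp5g2 alone of the 5 held the nuclear respiratory factor 1 motif, as 2 overlapping matches on opposite strands that start 42 and 41 bases before the transcription start. A window was found for 74 of the 87 members. Of these, 14 held that motif, or 18.9%, against 11.6% of the 8403 genes at 1 FPKM or more with a window and 5.33% of all 27025 windows. The ETS motif was in 13 members' windows, or 17.6%, against 14.7% and 7.05%. The windows end at the transcription start. No member window held the YY1 core, which was in 4.32% of windows of genes at 1 FPKM or more. The median GC content was 57.4% for members and 59.6% for genes at 1 FPKM or more. A match is a description of letters, not a site of binding.

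Atp5g3 (chr2:73908447-73911326, minus strand, GENCODE M21) was at 264, 315, 142 and 159.7 FPKM. Atp5g2 (chr15:102662864-102672352, minus strand) was at 253, 266, 124 and 146 FPKM. Atp5g1 (chr11:96068852-96075670, minus strand) was lower, at 47.2, 69.0, 27.0 and 28.1 FPKM. For each of the 3 genes both iNKT libraries were above both CD44hi libraries, and both KO libraries were above the WT library of the same cell type. Summed, subunit c transcripts came to 564, 649.8, 292 and 334 FPKM. WT iNKT to WT CD44hi ratios were 1.75 (1.35 to 2.24) for Atp5g1, 2.04 (1.86 to 2.24) for Atp5g2 and 1.86 (1.70 to 2.04) for Atp5g3. In KO they were 2.46 (1.999 to 3.02), 1.82 (1.67 to 1.98) and 1.97 (1.82 to 2.14). All 6 intervals exclude 1. The genes were picked for these differences and the intervals cover counting error only, so this is not a test. Atp5g1 had the largest KO to WT ratio of complex V in iNKT, 1.46 (1.12 to 1.92), but 1.04 (0.861 to 1.25) in CD44hi. How reads were shared among related genes and their processed copies is not given in the sources used here, so the split among the 3 is uncertain.

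The other ATP synthase genes that carry the Atp5 prefix, with the exception of Atp5e, were within 1.5-fold between the WT cell types. The 5 genes of the catalytic F1 head had medians of 187, 249, 208 and 216 FPKM. Atp5e, the small epsilon subunit and the highest gene of complex V, was at 409.8, 399.7, 248 and 281 FPKM, and its iNKT to CD44hi ratio was 1.65 (1.47 to 1.85) in WT and 1.42 (1.28 to 1.58) in KO. Atp5d, the delta subunit, went the other way at 142, 152, 169 and 164 FPKM. The alpha and beta subunits, which form the catalytic sites, were at 187, 249, 208 and 216 FPKM (Atp5a1) and 240.4, 307, 234 and 251 FPKM (Atp5b). Both were highest in KO iNKT. Among the 10 genes of the membrane part and the stalks, Atp5j2, the f subunit, was at 87.2, 83.9, 109 and 132 FPKM, higher in CD44hi in both genotypes by 1.26-fold (1.12 to 1.42) and 1.57-fold (1.41 to 1.77). Atp5l, the g subunit, was at 134, 108, 137 and 158 FPKM, and was lowest in KO iNKT. The remaining 5 (Atp5f1, Atp5h, Atp5j, Atp5k and Atp5o) ran from 71.3 to 169 FPKM and were within 1.5-fold in every comparison.

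**Figure D4:**
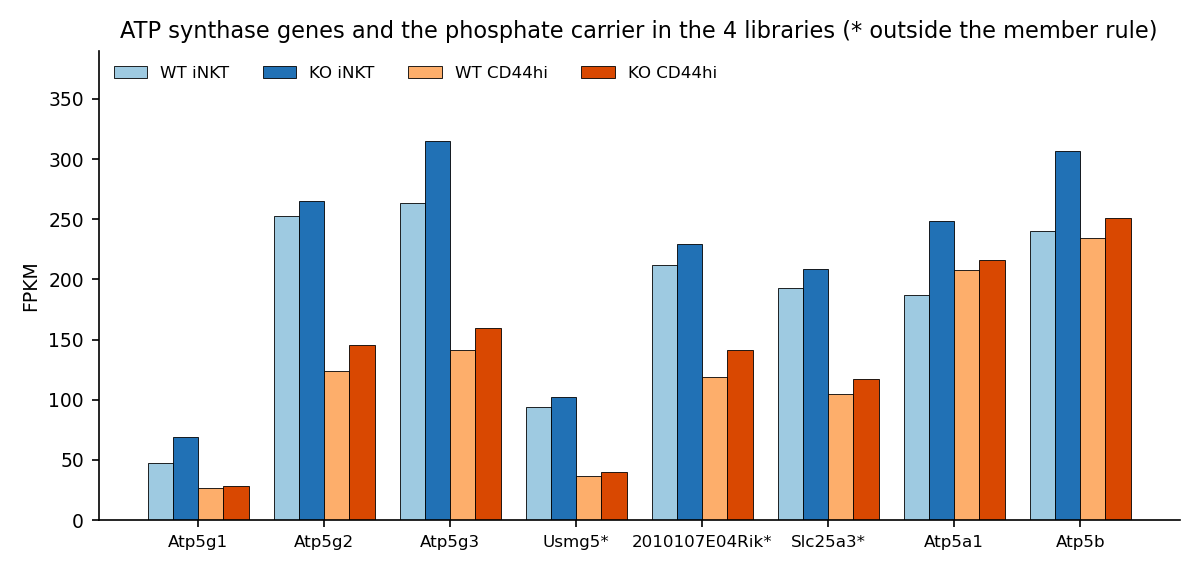
FPKM (vertical axis, linear) in the 4 libraries for the 3 subunit c genes, for Usmg5, 2010107E04Rik and Slc25a3, which lie outside the member rule (asterisks), and for the F1 genes Atp5a1 and Atp5b; each bar is 1 library. The first 6 genes are higher in both iNKT libraries than in both CD44hi libraries. The bars of Atp5a1 and Atp5b are not ordered by cell type in this way, while the F1 genes Atp5c1 and Atp5e, not shown, are.

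Outside the prefixes, the list of further subunits and carriers held 6 genes, 5 of them measured. Usmg5, a small membrane subunit of the ATP synthase also called DAPIT, was at 93.8, 102, 37.0 and 39.7 FPKM, and its iNKT to CD44hi ratio was 2.53 (1.85 to 3.42) in WT and 2.58 (1.95 to 3.41) in KO. 2010107E04Rik, now Atp5mpl, another small proteolipid of the ATP synthase, was at 212, 229, 119 and 142 FPKM. Slc25a3, the phosphate carrier that supplies the enzyme, comes from a separate list of carriers. It was at 193, 208, 105 and 118 FPKM, with ratios of 1.84 (1.73 to 1.97) and 1.77 (1.67 to 1.88). These 3 genes had both iNKT libraries above both CD44hi libraries, like subunit c. The same order held for Cyc1 of the list and for Atp5j, Atp5k and the F1 genes Atp5c1 and Atp5e. It was therefore not limited to the membrane part. Atpif1, the inhibitor protein of the ATP synthase, was lowest in WT iNKT, at 15.02, 38.5, 51.2 and 60.1 FPKM. Its level in WT CD44hi was 3.41 times that in WT iNKT (2.31 to 5.45), and its KO to WT ratio was 2.56 (1.63 to 4.31) in iNKT and 1.17 (1.02 to 1.35) in CD44hi. The difference of these 2 genotype ratios has no test with 1 library per group.

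Complex I, NADH dehydrogenase, is the largest complex. Its 7 nuclear core genes, which carry the NADH site and the iron-sulfur clusters, had medians of 41.3, 46.5, 35.7 and 38.6 FPKM. The 29 accessory genes had medians of 53.5, 49.5, 51.0 and 53.0 FPKM and a wider range, from 6.90 for Ndufa11 to 219 for Ndufa3 in WT CD44hi. Ndufa3, the highest of complex I, was at 299.7, 263, 219 and 200.4 FPKM. Among the core genes, Ndufv2, an iron-sulfur subunit of the NADH-oxidising module, was highest in KO iNKT, at 40.4, 61.0, 34.8 and 36.3 FPKM. Its KO to WT ratio was 1.51 (1.23 to 1.87) in iNKT, the largest of complex I, and 1.04 (0.926 to 1.18) in CD44hi. No core gene reached 1.5-fold between cell types in both genotypes.

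Ndufc1 (chr3:51404677-51408988, minus strand), a small accessory subunit, had the largest cell type difference of complex I in WT, and in KO the largest after Ndufs5. It was at 35.9, 45.2, 13.5 and 19.9 FPKM, so both iNKT libraries were above both CD44hi libraries. The ratios were 2.66 (1.36 to 4.74) in WT and 2.27 (1.36 to 3.81) in KO. The intervals are wide because a transcript of 315 bases gives few fragments, about 19.4 in WT iNKT. Ndufs4 was at 24.4, 25.7, 13.6 and 15.5 FPKM, Ndufb6 at 38.1, 46.1, 23.4 and 24.8, and Ndufa7 at 96.4, 119.8, 63.4 and 66.4, each higher in both iNKT libraries. Their WT ratios were 1.80 (1.501 to 2.15), 1.63 (1.25 to 2.11) and 1.52 (1.26 to 1.83).

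Ndufa1 (chrX:37187588-37191163, minus strand), an accessory subunit of the membrane arm, showed the reverse. It was at 56.9, 68.1, 111 and 110.4 FPKM, with both CD44hi libraries above both iNKT libraries. It was 1.95-fold higher in CD44hi than in iNKT in WT (1.49 to 2.60) and 1.62-fold in KO (1.27 to 2.08). The gene is X-linked, as are 2 other members, Cox7b and Ndufb11. The part of sex in the Ndufa1 values was not tested. Ndufb3 was higher in CD44hi by 1.71-fold (1.43 to 2.05) in KO and by 1.23-fold (1.04 to 1.46) in WT, at 57.2, 46.4, 70.3 and 79.4 FPKM. Ndufa5, at 30.0, 42.8, 48.6 and 44.3 FPKM, was low in WT iNKT, with a WT interval that includes 1 (1.62-fold, 0.965 to 2.98).

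Ndufs5 (chr4:123712710-123718202, minus strand), an accessory subunit of complex I, gave the most extreme value of all members. It was at 22.2, 0.00789, 31.6 and 42.1 FPKM. The value of KO iNKT is below the 0.585 FPKM that 1 fragment would give, so it is not a count of whole fragments and the gene is uncertain in that library. It drives both calls made on it, KO against WT iNKT and KO iNKT against KO CD44hi, and no fold is given. Without the members below 1 fragment in any library (Cox6a2, Cox7a1 and Ndufs5), no member was 2-fold lower in either comparison. Apart from Ndufc1 and Ndufs5, each gene of complex I was within 2-fold in all 4 comparisons.

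Complex II, succinate dehydrogenase, is also an enzyme of the citric acid cycle. Sdha, the flavoprotein, was even across the libraries at 76.1, 76.2, 77.6 and 83.5 FPKM. The iron-sulfur protein Sdhb was at 84.2, 70.1, 65.3 and 71.7 FPKM. The membrane anchors differed by cell type: Sdhc was at 55.4, 54.7, 35.9 and 36.7 FPKM and Sdhd at 59.1, 61.1, 34.1 and 44.5. The iNKT to CD44hi ratios were 1.54 (1.42 to 1.67) in WT and 1.49 (1.38 to 1.61) in KO for Sdhc, and 1.73 (1.51 to 1.99) and 1.37 (1.21 to 1.55) for Sdhd. Sdhd also had the largest KO to WT ratio of the complex in CD44hi, 1.31 (1.18 to 1.44). The median difference of the complex between cell types was 0.49 in WT and 0.21 in KO, over 4 genes.

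Complex III, the cytochrome bc1 complex, had 8 genes and no member called at 2-fold. Of all genes 1.14% to 10.9% were called each way, so none among 8 does not show that levels were stable. Uqcrfs1, the Rieske iron-sulfur protein, was the gene that differed by cell type, at 51.1, 59.4, 30.8 and 33.8 FPKM, with ratios of 1.66 (1.45 to 1.91) in WT and 1.76 (1.56 to 1.98) in KO. Uqcrh, the hinge protein and the highest gene of the complex, was at 248, 218, 251 and 274 FPKM. Uqcr11, at 44.2, 51.7, 65.2 and 62.6 FPKM, was higher in both CD44hi libraries. In iNKT the largest genotype ratio was that of Uqcr10, 1.41 (1.098 to 1.81), at 96.3, 136, 92.5 and 104 FPKM, and Uqcrb had the lowest KO to WT ratio there, at 71.1, 53.7, 72.3 and 68.5. In CD44hi the core protein gene Uqcrc1 was at 76.6 in WT and 89.5 in KO. From the list outside the prefixes, Cyc1, cytochrome c1 of complex III itself, was at 64.9, 69.1, 52.1 and 58.7 FPKM, and Cycs, cytochrome c, which carries electrons on to complex IV, at 10.8, 13.9, 10.02 and 11.1. Cyct, the testis cytochrome c, was listed at 0 in each library.

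Complex IV, cytochrome c oxidase, was represented by its ubiquitous subunits. The 11 ubiquitous genes had medians of 138, 159, 114 and 134 FPKM, and none was called at 2-fold in any comparison. Of all genes 1.14% to 10.9% were called each way, so none among 11 does not show that levels were stable. All 11 were above 0 in KO against WT CD44hi, with a median of 0.15, close to that of short transcripts in that pair. Cox4i1, the highest in each library but KO iNKT, was at 316, 281, 288 and 318 FPKM. Cox7a2 had the largest ratio in that pair, 1.35 (1.21 to 1.51), at 70.1, 81.1, 62.8 and 84.9 FPKM, and Cox6c the smallest, at 138, 159, 141 and 146 FPKM. In iNKT, Cox7c went from 54.2 in WT to 67.5 in KO and Cox6a1 from 249 to 209. Cox8a, the highest in KO iNKT, was at 304, 306, 217 and 241 FPKM. Between cell types, Ndufa4 was at 192, 207, 114 and 134 FPKM, with ratios of 1.68 (1.49 to 1.90) and 1.54 (1.38 to 1.72), and Cox5a at 98.3, 119.8, 61.7 and 79.9. Cox6b1 was lower in both iNKT libraries, at 179, 177, 239 and 262 FPKM.

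The tissue isoforms of complex IV were near 0 with 1 exception. Cox6a2 (chr7:128205435-128206387, minus strand) encodes the form of subunit 6A known from heart and skeletal muscle. It was at 0, 0.394, 7.80 and 55.7 FPKM, and the value of KO iNKT is worth about 1 fragment. It was therefore listed at 0 or near 0 in both iNKT libraries and highest in KO CD44hi, 7.15-fold above WT CD44hi (5.57 to 9.27). In KO CD44hi its level lay between those of the 2 lowest ubiquitous subunits, Cox7b at 49.6 FPKM and Cox7c at 62.8, and below that of its ubiquitous counterpart Cox6a1 at 267.

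Genes of plasmacytoid dendritic cells, the interferon-producing cells of the spleen, moved with Cox6a2. Siglech, a receptor that marks these cells, was at 0, 0, 11.1 and 75.7 FPKM. Klk1 followed the same order at 0, 0, 6.51 and 53.7. Tcf4, the transcription factor that directs this lineage, was at 0.140, 0.129, 2.99 and 13.1 FPKM, and Irf8, shared with myeloid and B cells, at 6.79, 10.4, 22.9 and 105. Bst2, which interferon induces in many cells, was at 101, 78.7, 64.1 and 195 FPKM, and Ccr9, also a T cell chemokine receptor, at 41.0, 8.81, 7.91 and 41.0. The 6 listed genes summed to 149, 98.1, 116 and 484 FPKM, and 2 of them were at 0 in each iNKT library. The part of these cells in the Cox6a2 values was not tested.

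**Figure D5:**
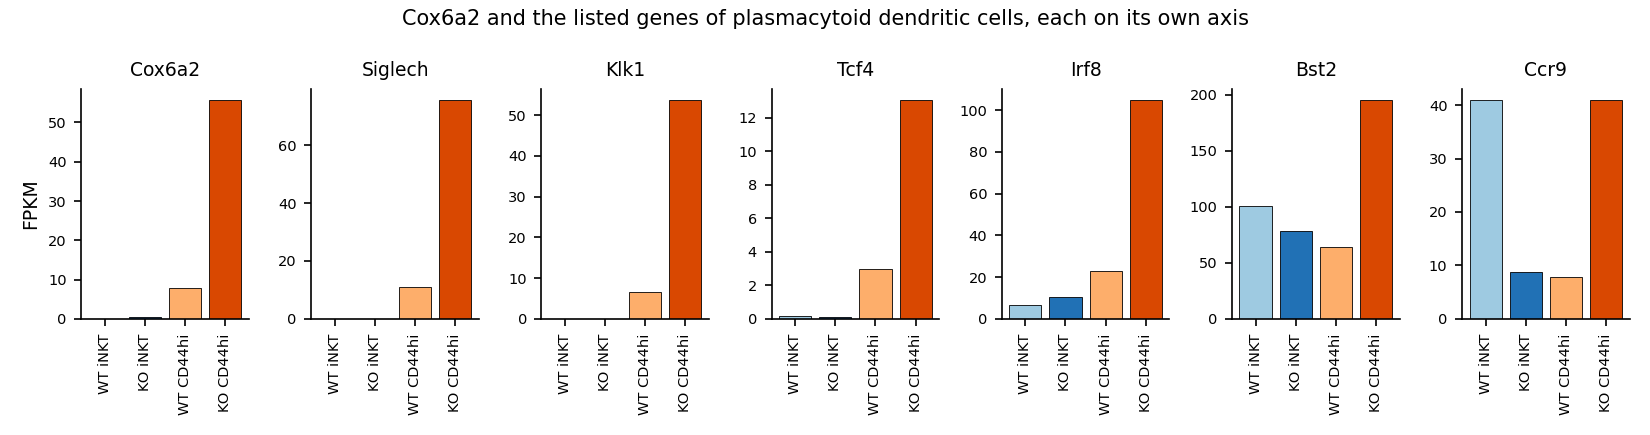
FPKM (vertical axis, linear, each panel on its own scale from 0) of Cox6a2 and the 6 listed genes of plasmacytoid dendritic cells in the 4 libraries. Cox6a2, Siglech, Klk1, Tcf4 and Irf8 have the same order of the CD44hi libraries, with KO CD44hi highest, whereas Bst2 and Ccr9 were also well above 0 in WT iNKT.

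Cox6b2, the testis form of subunit 6B, was at 0.753, 2.79, 1.104 and 1.42 FPKM. Its KO to WT ratio in iNKT was 3.70, but this rests on about 1.1 and 4.3 fragments and the interval runs from 0.233 to 152. Cox7a1, the muscle form of subunit 7A, was at 1.19, 1.102, 0 and 1.22 FPKM. The call between the WT libraries rests on about 1.1 fragments against 0, and the call between the CD44hi libraries on about 5.6 against 0. Their ubiquitous counterparts Cox6b1 and Cox7a2 were at least 62.8 FPKM in every library.

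The 10 members that are not subunits were mostly low. The 6 assembly factors had medians of 13.5, 11.6, 12.3 and 11.5 FPKM, from 4.86 for Ndufaf4 to 35.0 for Sdhaf1 in WT iNKT. Ndufaf1 was at 11.95, 12.4, 7.41 and 9.57 FPKM and Ndufaf2 at 6.50, 8.65, 12.02 and 10.5, on opposite sides of the cell type comparison. Cox7a2l, linked to the joining of complexes III and IV into supercomplexes, was high and even, at 228, 255, 209 and 229 FPKM. These RNA levels do not show whether that joining occurred. Atp5s and Atp5sl, now Dmac2l and Dmac2, were at 4.23, 5.73, 2.58 and 2.99 FPKM and at 18.7, 14.8, 19.0 and 22.1. Cox4nb, now Emc8 of an endoplasmic reticulum complex, was at 4.30, 4.43, 5.17 and 6.18.

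Other mitochondrial gene lists, here and below, were read by the same rule. Of all genes, 6.08% were higher and 3.35% lower in KO against WT iNKT, and 2.44% and 1.14% in CD44hi. Between cell types, 3.65% were higher and 10.9% lower in WT iNKT, and 3.02% and 9.06% in KO iNKT. In lists this short, few calls or none do not show that levels were stable. Of 44 assembly factors outside the prefixes, none was called in KO against WT in either cell type, and between cell types 2 were higher and 1 lower in WT iNKT and 1 higher and 1 lower in KO iNKT. 1110058L19Rik, now Sdhaf4, an assembly factor of complex II, was higher in both iNKT libraries, at 17.1, 20.1, 6.35 and 9.47 FPKM. The other gene higher in WT was Cox10, which makes heme for complex IV, at 24.4, 14.1, 9.41 and 12.5. The lower gene was Gm20571 (Pet117), with 5.70 and 9.63 FPKM in the CD44hi libraries and values indistinguishable from 0 in both iNKT libraries. Of 24 genes of the citric acid cycle and pyruvate entry, none was called in either genotype comparison or between the WT libraries. Idh2, mitochondrial isocitrate dehydrogenase, was lower in KO iNKT than in KO CD44hi, at 15.5, 13.5, 20.95 and 31.4 FPKM. Brp44l, now Mpc1 of the pyruvate carrier, had the largest difference of the list in KO against WT iNKT, at 14.0, 26.5, 14.7 and 14.4.

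Of 18 measured regulators of mitochondrial biogenesis, none was called in any comparison, to be read beside the same shares of all genes. Ppargc1a, the coactivator PGC-1 alpha, was at 0, 0, 0.0587 and 0.0442 FPKM. Nrf1, nuclear respiratory factor 1, was at 13.6, 13.1, 19.8 and 19.3 FPKM. Tfam, which packages and transcribes mitochondrial DNA, was at 14.6, 14.7, 12.2 and 11.5. Myc was higher in KO in both cell types, at 37.4, 58.0, 29.1 and 45.6 FPKM, with ratios of 1.55 (1.35 to 1.79) in iNKT and 1.57 (1.44 to 1.70) in CD44hi. Polg, the mitochondrial DNA polymerase, was highest in WT CD44hi, at 14.8, 18.2, 25.9 and 16.4 FPKM.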

How the data were processed

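The authors deposited 1 table of gene symbols and FPKM values per library, per the file headers. Build mm10 and the tools TopHat 1.3.2, Bowtie2 2.0.0 and Cufflinks 2.0.2 are named, per the submitters' processing notes, with no roles; annotation, filters and strand use are not given in the sources used here. Rows sharing a symbol were summed and small RNA genes were left out. Low FPKM values are multiples of what 1 fragment adds, and depth was read from that spacing in transcripts of at least 3000 bases, with GENCODE M21 lengths. A gene was measured in a pair at 1 FPKM or more in either library, and called at 2-fold on log2(FPKM + 1). Intervals use the shortest coding transcript with a RefSeq record and assume that each fragment was counted once. The depth estimate and the calls were tested on simulated data that used the same transcript lengths. The coverage of the intervals was not tested. Members with values are those called, the extremes and the highest of each complex, paralog sets and members near the 1 FPKM or 1 fragment limit; others were named after their values were seen. Of the further lists, the called genes and some extremes are printed. Members and lists were chosen with earlier results of these data known. Python 3.11.15, numpy 2.4.6, pandas 2.3.3 and scipy 1.17.1 were used.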

Additional observations from a re-analysis of the deposited data

How the results depend on the processing

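No paired analysis was possible because each group has 1 library. Counts, the members' medians and complex medians kept their direction under a pseudocount of 0.1, no filter on low values and the highest row of a symbol, and the counts and members' medians also with subunits alone. Centred on all genes they did so except for complex III between the WT cell types, whose median went from -0.0108 to 0.0536. In KO against WT iNKT, members at least 2-fold higher were 0 at 5 FPKM or more, 2 with FPKM rescaled to TPM (Cox6a2 and Cox6b2) and 0 without the tissue isoforms Cox6a2, Cox6b2 and Cox7a1, a setting chosen after seeing the data; members lower were 0 without those below 1 fragment. In KO against WT CD44hi, higher members were 1 at 5 FPKM or more, 1 centred on transcripts under 1000 bases, 0 without those below 1 fragment and 0 without the tissue isoforms. The median of all members in this pair was -0.0277 centred on short transcripts and 0.0540 as TPM. Centred in this way, complex I was at -0.0457, complex II at -0.0334, complex III at -0.0490, complex IV at 0.0594 and complex V at -0.0505; as TPM, complex I was at 0.0363 and complex V at 0.0306. Between the KO cell types, complex III turned from -0.0310 to 0.0410 centred on short transcripts. Between cell types at 1.5-fold, 17 were higher and 4 lower in WT, and 12 and 5 in KO. Lower members were 0 in both genotypes without those below 1 fragment, and 0 in WT and 1 in KO without the tissue isoforms. Depth limits Cox6b2 and Cox7a1, and the iNKT libraries more than the CD44hi ones.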

Other observations

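Other genes of the mitochondrial membrane and ribosome had differences of their own. Slc25a4, a muscle-type ADP/ATP carrier, was at 24.0, 45.7, 72.0 and 59.7 FPKM (iNKT WT, then KO; CD44hi WT, then KO), so WT iNKT was lowest, as for Atpif1. In iNKT it was 1.90-fold higher in KO (1.61 to 2.25). Slc25a5, the main carrier of proliferating cells, was highest in KO iNKT, at 215, 312, 178 and 209 FPKM in the same order of libraries. Ucp2, an uncoupling protein homologue, was even at 214, 207, 197 and 186.

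Of 31 proteins of the small mitochondrial ribosome subunit, 1 was at least 2-fold higher in KO than in WT iNKT, against 6.08% of all genes. It was Mrps6, at 24.1, 50.3, 30.6 and 23.7 FPKM, with a ratio of 2.09 (1.59 to 2.75). Mrps14 was higher in both iNKT libraries, at 14.4, 13.3, 5.68 and 6.11 FPKM, and Mrps28 was lower in KO iNKT than in KO CD44hi, at 12.3, 8.64, 16.8 and 21.5. Of 47 proteins of the large subunit, none was called between genotypes, and Mrpl30 was higher in WT iNKT than in WT CD44hi, at 58.4, 52.0, 28.0 and 30.1. Of 22 protein import genes, none was called between genotypes, and Timm9 was higher in WT iNKT than in WT CD44hi, at 17.6, 19.3, 7.99 and 11.2.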
